A study of Peromyscus leucopus and Peromyscus maniculatus with 24 samples.

Results

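The genes described here encode the subunits of the glutamate and GABA receptors, the principal excitatory and inhibitory transmitter receptors of the brain. They were chosen by gene name alone: the AMPA (Gria), kainate (Grik), NMDA (Grin) and delta (Grid) families, the metabotropic glutamate receptors (Grm), the GABA-A subunits except Gabra6, and both GABA-B subunits (Gabbr). Of these families 41 genes are described, each listed in at least 1 of the 2 gene tables. The P. leucopus table listed 37 of them among 25252 named genes, the P. maniculatus table listed 40 among 16899, and 36 names stood in both. Grik2, Grm4, Grm6 and Gabra3 were not listed by name for P. leucopus, and Gabre was not listed for P. maniculatus. Grm4, Grm6 and Gabra3 of P. leucopus stood in the table under locus identifiers that RefSeq pairs with these symbols, and their values are given only where named as such.

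Fast excitation in the brain is carried by glutamate acting on AMPA receptor channels, while NMDA receptors admit calcium when glutamate and depolarisation coincide, and kainate receptors modulate both release and excitability. Metabotropic glutamate receptors act through G proteins and are grouped by their coupling: the first group drives phospholipase C, and the second and the third lower cyclic AMP. GABA-A receptors are chloride channels of mixed subunits, in which a gamma subunit places the receptor at synapses and a delta subunit outside them, and GABA-B receptors are obligate pairs of subunits that act through G proteins. Many of these subunits mark brain regions and cell types, for example Grin2c and Gabrd in cerebellar granule cells.

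Brain RNA was sequenced from 24 outbred deer mice, with 1 library for each animal and 6 animals in each of 4 groups. The young groups of both species had an age of 7 months. The 6 old P. leucopus animals (LL stock) were each 28 months old. The 6 old P. maniculatus bairdii animals (BW stock) were 25, 26, 28, 28, 29 and 29 months old. Both stocks descend from wild-caught founders and BW is kept as a closed colony, the labels name no allele and no treatment, and they give neither a brain region nor a dissection. The comparisons ask how receptor transcripts differ between young and old brains of each species, and whether that age difference differs between the species, of which P. maniculatus is the one known for degenerative brain lesions at old age. By the labels, old and young samples are separate animals, so each p-value measures the spread between animals.

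Total counts on named genes were 10241267 to 19461818 for P. leucopus and 5766964 to 8804417 for P. maniculatus. Expression of a gene in an animal is given as CPM, its count scaled to the library total, and levels of different genes are given as TPM, for which counts are first divided by the length of the gene model. Gene models of P. maniculatus held mostly coding length, since 91.1% of their lengths were multiples of 3, against 40.5% for P. leucopus, so levels were not compared between the species. Neuronal markers (Snap25, Syt1, Rbfox3 and Stmn2) were present in every library, with summed levels of 2936 to 6683 CPM. Markers of single regions differed between libraries of 1 group far more. Gabra6, Fat2, Cbln3 and Neurod1, markers of cerebellar granule cells, summed to 4.44 to 155.6 CPM in young and 6.57 to 2399 CPM in old P. leucopus, and to 12.9 to 1860 CPM in young and 8.58 to 312 CPM in old P. maniculatus. Gabra6 exceeded 100 CPM in 4 libraries, old P. leucopus replicates 4 (832 CPM) and 6 (580.4 CPM), young P. maniculatus replicate 3 (677 CPM) and old P. maniculatus replicate 2 (119 CPM), and reached at most 47.7 CPM in the others. The cortical excitatory neuron markers Tbr1, Cux2, Fezf2 and Lamp5 summed to 75.8 to 447 CPM in young and 113 to 560 CPM in old P. leucopus. In P. maniculatus, whose table listed 3 of them, they summed to 53.9 to 402 CPM and 137 to 295 CPM. Young P. leucopus replicates 1 to 4 held 0.254 to 1.37 CPM of Tbr1, 0.0847 to 1.83 of Fezf2, 47.5 to 59.9 of Cux2 and 20.6 to 164 of Lamp5. Young replicates 5 and 6 held 38.1 and 30.3 CPM of Tbr1, 30.7 and 12.3 of Fezf2, 67.5 and 89.6 of Cux2, and 311 and 236 of Lamp5. In old P. leucopus Tbr1 stood at 0.36 CPM in replicate 4 and at 10.7 to 46.6 CPM in the others, and Fezf2 at 0.154 CPM and at 6.64 to 40.5 CPM. Mbp, a myelin gene, stood at 6453 to 9294 CPM in young P. leucopus replicates 1 to 4 and at 1259 to 3856 CPM in the other 8 animals of that species. Old P. maniculatus replicates 3 and 4, labelled as 2 animals 29 months old, resembled each other more than any other pair. Their chi-square per gene was 1.46, against 8.82 to 99.8 in the other 65 pairs of that species. They differed by more than counting noise, which does not show that they are independent. They were kept as 2 animals by their labels, and summed as an alternative. In bulk brain RNA, fewer cells of a type and less RNA per cell cannot be told apart.

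Nearly all receptor genes were expressed. In P. leucopus 36 of the 37 listed members had at least 1 read, 34 passed the filter on low counts, and the same number had a mean level of at least 1 TPM. In P. maniculatus 39 of 40 had a read, 37 passed the filter and 37 reached 1 TPM. Gabrr3, a retinal rho subunit, had no read in any library, which allows a level of up to 0.154 to 0.520 CPM depending on the library (3 counts, counting error only). Gabrp, a subunit of epithelia, stayed at or below 0.267 CPM in every animal, Gabre at or below 2.20 CPM in P. leucopus, and Grm6, a receptor of retinal bipolar cells, at or below 1.82 CPM in P. maniculatus.

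**Figure D1:**
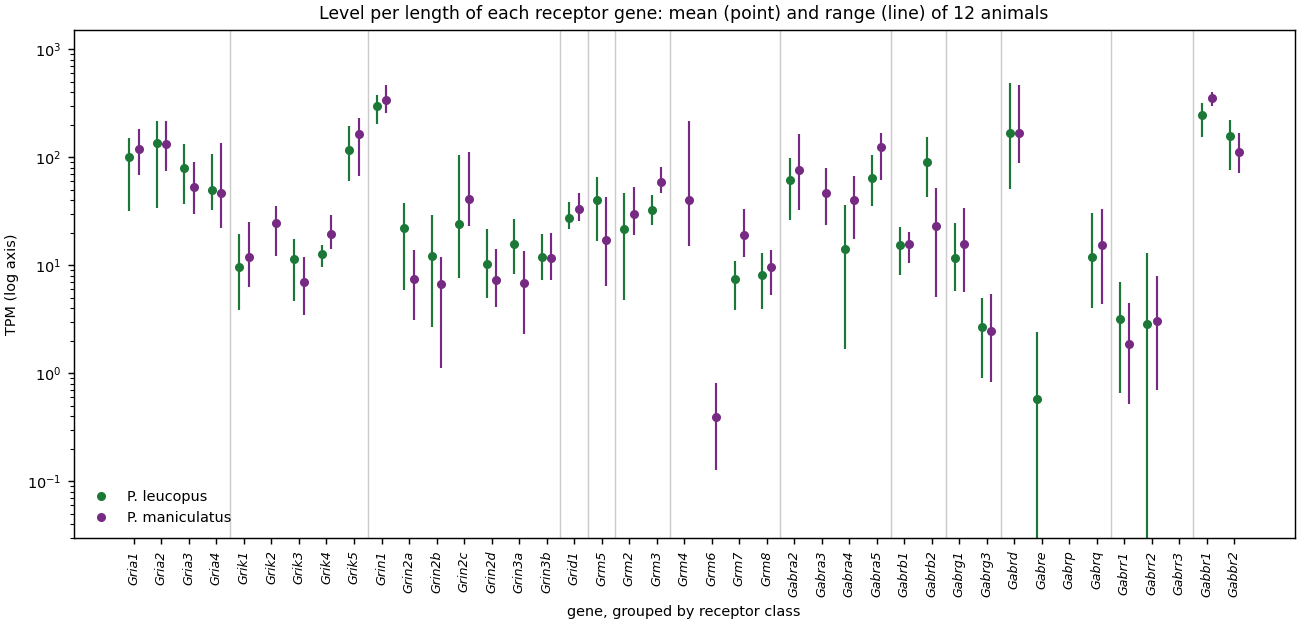
Level per length (TPM, log axis) of each receptor gene in P. leucopus and P. maniculatus, as the mean (point) and range (line) of 12 animals, with genes ordered by receptor class; lines that reach the lower edge go down to 0. Grin1 and Gabbr1 stand highest in both species, while the rho subunits stand below 10 TPM on average; Grm6 of P. maniculatus and Gabre of P. leucopus are the lowest genes drawn.

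The order of levels per length was led by the same subunits in both species. Grin1, the obligatory NMDA subunit, stood at 301 ± 63 TPM (SD, n = 12) in P. leucopus and 337 ± 69 TPM in P. maniculatus. Gabbr1, the GABA-B subunit that binds the ligand, stood at 245 ± 48.1 TPM and 351 ± 34.8 TPM. Within classes the leading subunit was mostly clear: Grik5 exceeded every other kainate subunit, Grin1 every other NMDA subunit and Gabbr1 exceeded Gabbr2 in 12 of 12 animals of each species. Among AMPA subunits Gria2, which makes the channel impermeable to calcium, stood at 136 ± 62.7 TPM in P. leucopus and 133 ± 48.2 TPM in P. maniculatus, above Gria1 in 10 and 8 of 12 animals, so these neighbours did not differ beyond their spread. In P. leucopus Grin2c (23.9 ± 29.95 TPM) and Grin2a (22.2 ± 11.8 TPM) alternated between animals, with Grin2c the higher in 4 of 12, whereas in P. maniculatus Grin2c (41.5 ± 24 TPM) exceeded Grin3b, its next neighbour, in 12 of 12. Gabra5 (65 ± 19.6 TPM) and Gabra2 (62.1 ± 27.1 TPM) were not separated in P. leucopus, with Gabra5 the higher in 7 of 12, while Gabra5 (126 ± 30.4 TPM) exceeded Gabra2 (77 ± 36.6 TPM) in 12 of 12 P. maniculatus. Gabrd stood at 167 ± 131 TPM in P. leucopus and 166 ± 99.1 TPM in P. maniculatus.

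Several GABA-A subunit genes lie side by side. Gabra2, Gabra4, Gabrb1 and Gabrg1 spanned 1.25 Mb of P. maniculatus chromosome 10 (chr10:63845492-65092442, HU_Pman_2.1), and Gabrr1 and Gabrr2 spanned 0.0955 Mb of chromosome 2 (chr2:54430326-54525809). Each of these groups also lay on a single scaffold of P. leucopus. Exons shared with another gene made up 0.885% of the Gabra4 model of P. leucopus and 0.21% of the Grik4 model of P. maniculatus, and no other member shared exons.

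No receptor gene passed an adjusted p of 0.05 (edgeR's quasi-likelihood test with Benjamini-Hochberg adjustment over all genes) between old and young animals of either species, and neither did any other gene (0% of 14816 genes tested in P. leucopus and 0% of 12384 in P. maniculatus). In P. leucopus 10 of 34 receptor genes had an unadjusted p under 0.05, 5 higher and 5 lower in old animals, that is 29.4% against 18.7% of all genes tested (8.32% higher and 10.4% lower). DESeq2 called 5 of the 34 in P. leucopus (Grin2c, Gabrd, Gabrq, Gabrr1 and Grin2d) beside 5.85% of all genes. Of the 34 fitted differences 21 were positive, with a median of 0.28 on the log2 scale, against 52.2% positive and a median of 0.016 over all genes. With the cortical markers as a covariate 18 were positive and 16 negative, with a median of 0.058. In P. maniculatus 2 of 37 receptor genes, Gabrg3 and Grm7, had an unadjusted p under 0.05, both lower in old animals, that is 5.41% against 10.3% of all genes (4.94% higher and 5.39% lower). DESeq2 called none of the 37 there, and 0.161% of all genes. Of the 37 differences 24 were negative, with a median of -0.24, while 50% of all genes were positive and their median was close to 0. Throughout, fold changes are log2 of old against young with the standard error of the fit.

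**Figure D2:**
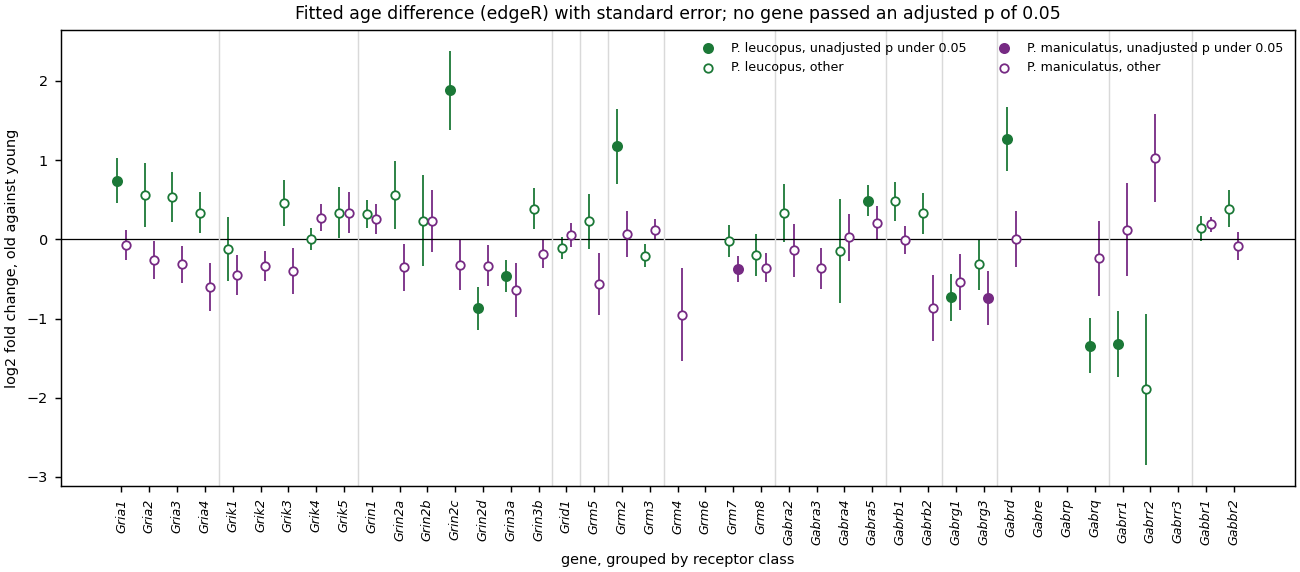
Fitted log2 fold change of each receptor gene between old and young animals (vertical axis, bars are standard errors, 6 young and 6 old animals a species), with genes ordered by receptor class. Filled points mark an unadjusted p under 0.05: 10 genes in P. leucopus, from Gabrq at -1.35 to Grin2c at 1.88, and 2 in P. maniculatus, both below 0.

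**Figure D3:**
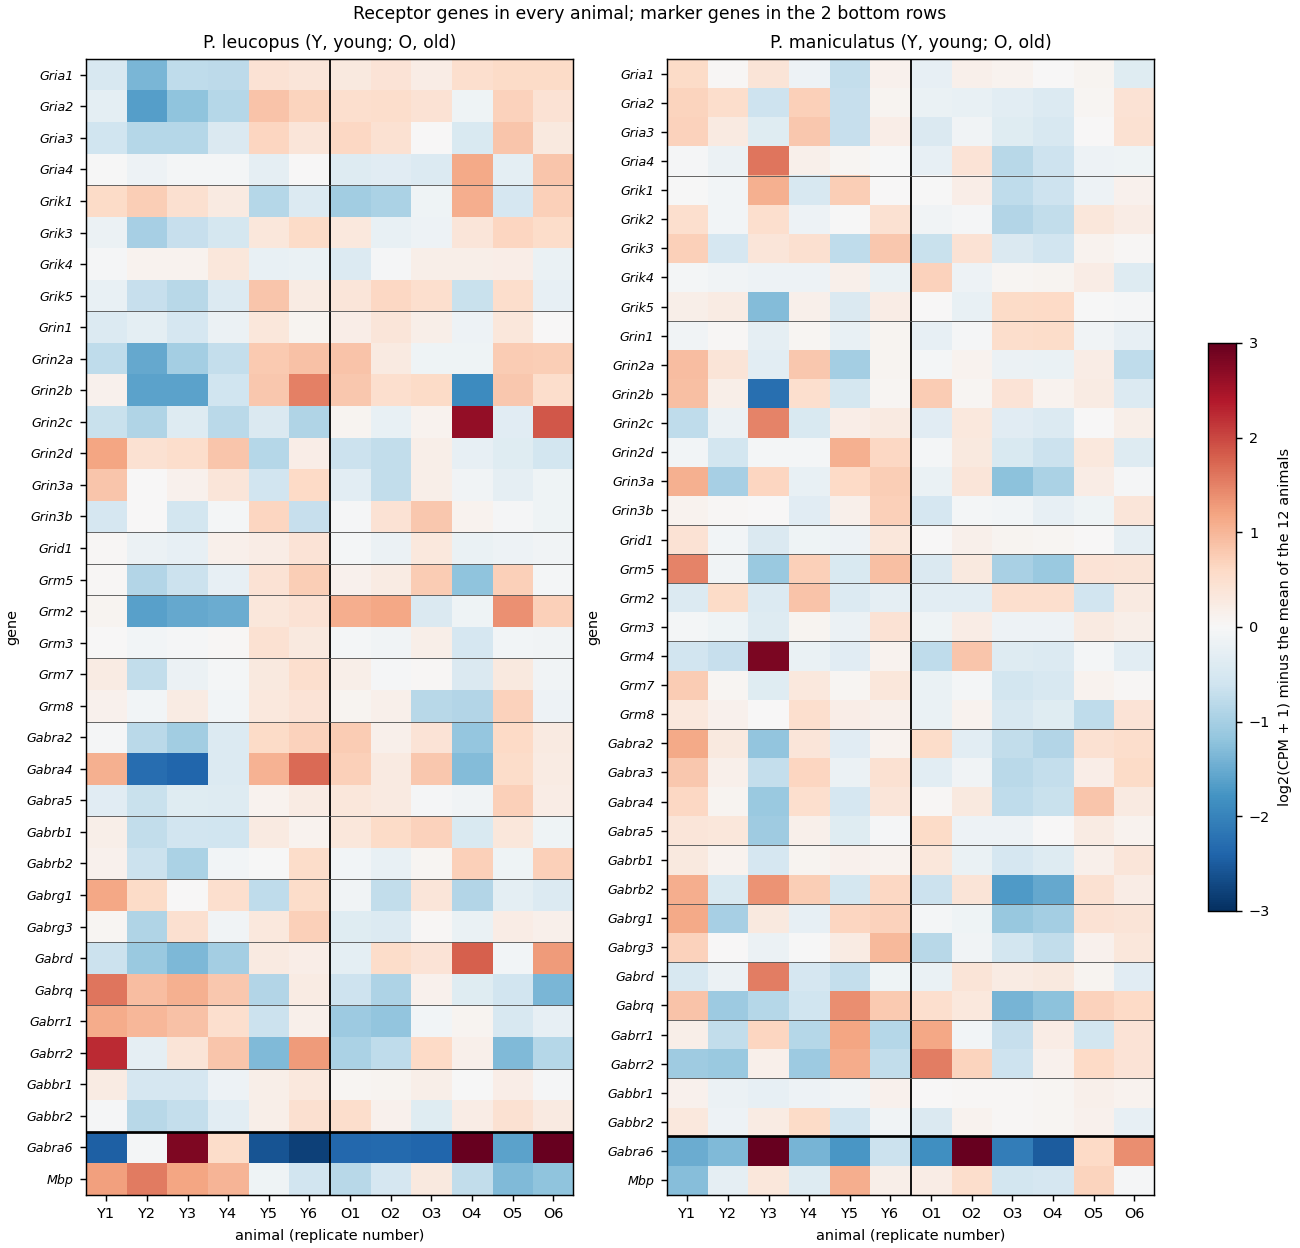
Receptor genes that passed the filter (rows, by class) in every animal (columns), coloured by log2(CPM + 1) minus the mean of the 12 animals of the species, with Gabra6 and Mbp in the bottom 2 rows. Blocks of receptor genes are low in young P. leucopus replicates 2 and 3, where Mbp stood at 9294 and 7201 CPM. Young replicates 1 and 4, with Mbp at 7474 and 6453 CPM, were the lowest of the 12 animals in no receptor gene and the highest in 6 and 1. Both still lay below every old animal in Gria1 (173 and 142 CPM), Gria2 (260 and 176 CPM), Gabra5 (57.1 and 55.5 CPM) and Gabrd (72.8 and 55.7 CPM). Grin2c and Gabrd are high in old P. leucopus replicates 4 and 6 and in young P. maniculatus replicate 3. Gabra6 stood at 832, 580.4 and 677 CPM in these libraries.

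In P. leucopus 12 of 16 ionotropic glutamate receptor genes tested had a positive fitted difference, among them all 4 AMPA subunits, and so did 2 of 5 metabotropic receptors, 5 of 11 GABA-A subunits and both GABA-B subunits. In P. maniculatus 5 of 17 ionotropic glutamate receptor genes had a positive one, none of the 4 AMPA subunits among them, and so did 2 of 6 metabotropic receptors, 5 of 12 GABA-A subunits and 1 of 2 GABA-B subunits. These are counts of fitted signs, most of which did not pass any test, and whether they differ between classes or species was not tested. Summed over the ionotropic glutamate receptor genes described, the level was 811 ± 301 TPM in young (SD, n = 6, 531 to 1227 TPM) and 1076 ± 94.3 TPM in old P. leucopus (958 to 1205 TPM), and 1069.6 ± 160.4 TPM in young (779 to 1240.3 TPM) and 991 ± 109 TPM in old P. maniculatus (814 to 1107 TPM). Old and young animals overlapped in both species, and among P. leucopus the young animals spread more widely than the old.

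Extreme values were spread unevenly over the libraries. Young P. leucopus replicate 2 was the lowest of the 12 animals in 12 of 34 receptor genes and young replicate 3 in 7, while neither was the highest in any. Young replicate 6 was the highest in 7 and the lowest in 1, and old replicate 4 the highest in 4 and the lowest in 6. Young P. maniculatus replicate 3 was the highest in 6 and the lowest in 11 of 37 receptor genes, young replicate 1 was the highest in 11 and the lowest in 1, young replicate 5 the highest in 3 and the lowest in 7, and old replicate 3 was the lowest in 9 and the highest in none. Receptor genes of the cerebellum (Grin2c, Grm4, Gabrd and Gria4) were among those highest in young P. maniculatus replicate 3.

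Among the AMPA subunits, Gria1, a subunit inserted at synapses during potentiation, had the only unadjusted p under 0.05 in P. leucopus. Its levels were 93.2 to 330.2 CPM (median 158) in young and 287 to 365 CPM (median 337) in old animals of P. leucopus. Young replicates 1 to 4 lay at 93.2 to 173 CPM, below every old animal, while young replicates 5 and 6 (330.2 and 315 CPM) lay within the range of the old. The log2 fold change was 0.74 ± 0.29 (adjusted p = 0.20). Gria1 of P. maniculatus stood at 172 to 423 CPM (median 302) in young and 221 to 313 CPM (median 295) in old animals. These groups overlapped throughout, with a log2 fold change of -0.068 ± 0.19 (adjusted p = 0.881).

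Gria2 showed the same split of young P. leucopus. It stood at 100.5 to 580.1 CPM (median 218) in young and 291 to 516 CPM (median 444) in old animals. Young replicate 5 was the highest of the 12 animals (580.1 CPM), young replicate 6 lay within the old range (505 CPM), and young replicates 1 to 4 lay below every old animal. The fitted difference was 0.56 ± 0.40 (adjusted p = 0.465). In P. maniculatus Gria2 stood at 185 to 493 CPM (median 371) in young and 223 to 403 CPM (median 257) in old animals, with a difference of -0.26 ± 0.24 (adjusted p = 0.63). The share of Gria2 in AMPA transcripts was 34.1% ± 8.2 (24.2% to 43.7%) in young and 37% ± 5.39 (27.5% to 42.7%) in old P. leucopus (SD, n = 6, range), and 37.4% ± 9.49 (20.4% to 46.5%) and 37.4% ± 5.03 (31.9% to 46.2%) in P. maniculatus. The make-up of the AMPA class by this measure overlapped between ages in both species.

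Gria4, a subunit of fast-gated receptors that is abundant in cerebellar neurons and glia, was highest in the libraries rich in granule cell markers. Levels were 145 to 176 CPM (median 168) in young and 129.8 to 381 CPM (median 139.8) in old animals of P. leucopus. Only old replicates 4 and 6, rich in Gabra6, lay above the young range, and the other 4 old animals lay below every young animal. Gria4 of P. maniculatus stood at 89.4 to 312 CPM (median 103) in young and 56.4 to 135 CPM (median 88.3) in old animals, with young replicate 3 far above its group. Fold changes were 0.34 ± 0.26 (adjusted p = 0.501) and -0.60 ± 0.30 (adjusted p = 0.467). Gria3 gave 0.53 ± 0.32 and -0.32 ± 0.23, also without passing the test.

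No kainate subunit had an unadjusted p under 0.05 in either species. Grik5, a subunit that forms channels only together with Grik1, Grik2 or Grik3, was the most abundant. Its levels were 106 to 336 CPM (median 152) in young and 118 to 294 CPM (median 256) in old animals of P. leucopus, and 159 to 469.7 CPM (median 440.4) in young and 337 to 595 CPM (median 393) in old animals of P. maniculatus. Both species overlapped, with log2 fold changes of 0.33 ± 0.32 and 0.34 ± 0.26. The near-identical old P. maniculatus replicates 3 and 4 were the highest of their species (591 and 595 CPM) and young replicate 3 was the lowest (159 CPM). Grik2, listed for P. maniculatus alone, made up 13.3% ± 5.05 (9.15% to 22.9%) of kainate transcripts in young and 9.44% ± 3.9 (4.51% to 13.4%) in old animals, which overlapped. The fold changes of Grik1, Grik3 and Grik4 lay between -0.12 ± 0.40 (Grik1) and 0.46 ± 0.28 (Grik3) in P. leucopus and between -0.45 ± 0.25 (Grik1) and 0.27 ± 0.17 (Grik4) in P. maniculatus.

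Of the NMDA subunits, Grin2c of P. leucopus was the 1 receptor gene of either species whose groups did not overlap. Grin2c encodes the GluN2 subunit of cerebellar granule cells and also of astrocytes and some thalamic neurons. It stood at 32.5 to 46.8 CPM (median 36.7) in young and 48.4 to 386 CPM (median 65.9) in old animals. Every old animal lay above every young animal, a pattern found in 0.371% of all genes tested in P. leucopus (0.479% for the opposite order). Old replicates 4 and 6 (386 and 228 CPM) were the highest, and the other 4 old animals lay between 48.4 and 66.8 CPM against a young maximum of 46.8 CPM. The log2 fold change was 1.88 ± 0.50 (adjusted p = 0.118), which DESeq2 called (adjusted p = 0.00507). Without the libraries over 100 CPM of Gabra6 it was 0.64 (adjusted p = 0.115), and with the granule cell markers as a covariate 0.99 (adjusted p = 0.0577). With the cortical markers as a covariate it was 1.96 (adjusted p = 0.205).

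Grin2c did not show this order in P. maniculatus. Its levels were 70.2 to 338 CPM (median 122) in young and 90.01 to 149 CPM (median 108) in old animals. The groups overlapped, and young replicate 3 (Gabra6 677 CPM) was the highest. The log2 fold change was -0.32 ± 0.31 (adjusted p = 0.638), and it was 0.036 without the libraries over 100 CPM of Gabra6. The age difference of P. maniculatus minus that of P. leucopus was -2.19 ± 0.60 for Grin2c (adjusted p = 0.206 by edgeR, 0.0343 by DESeq2), and -0.63 without those libraries.

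**Figure D4:**
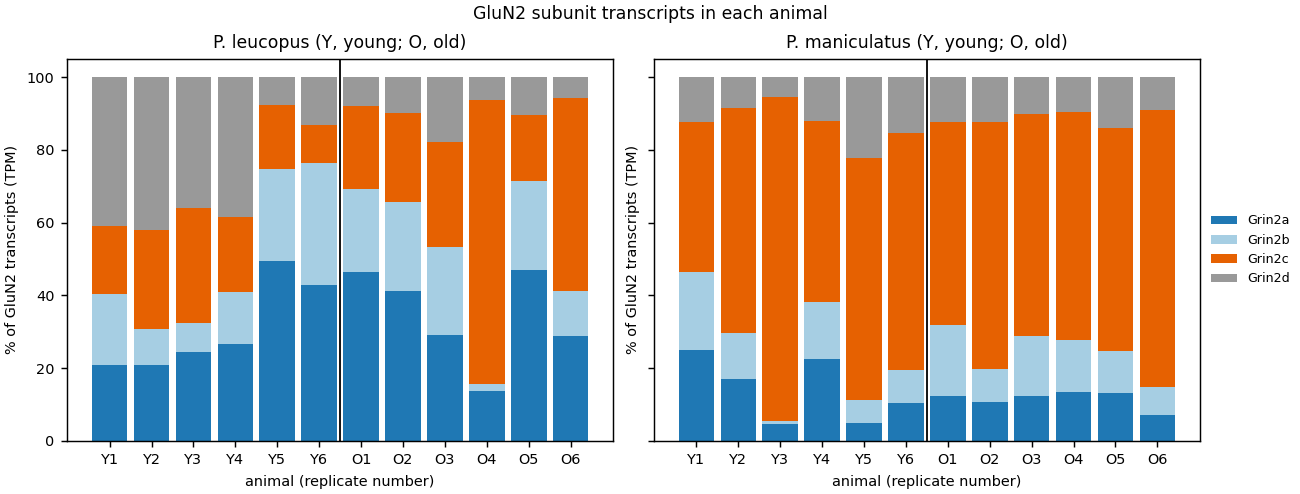
Share of each GluN2 subunit (Grin2a, Grin2b, Grin2c and Grin2d, by TPM) in each animal; bars add up to 100% and the vertical line separates young (Y) from old (O). Young P. leucopus replicates 1 to 4 carry the broadest Grin2d segments, old P. leucopus replicate 4 and young P. maniculatus replicate 3 have Grin2c shares of 78.2% and 89.1%, and Grin2c holds the largest share in every P. maniculatus animal, from 41.4% upward.

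The make-up of the GluN2 subunits differed from animal to animal. Grin2a, the adult forebrain subunit, stood at 42.5 to 231 CPM (median 75.1) in young and 114 to 226 CPM (median 181) in old animals of P. leucopus and Grin2b, the subunit of early synapses and forebrain, at 29.97 to 266 CPM (median 81.3) in young and 24.6 to 165 CPM (median 137) in old animals. Both overlapped between ages, and both were higher in young replicates 5 and 6 than in young replicates 1 to 4. Their fold changes were 0.56 ± 0.42 and 0.24 ± 0.57, and that of Grin2b became negative (-0.46) with the cortical markers as a covariate. In P. maniculatus Grin2a stood at 12.2 to 50.04 CPM (median 30.8) in young and 14.7 to 30.4 CPM (median 23.8) in old animals and Grin2b at 4.0 to 43.5 CPM (median 25) in young and 17 to 39.3 CPM (median 26) in old animals, with the lowest Grin2b value in young replicate 3. Grin2c made up 21% ± 7.54 (10.3% to 31.7%) of GluN2 transcripts in young and 37.6% ± 23.4 (18.2% to 78.2%) in old P. leucopus, and 62.4% ± 16.4 (41.4% to 89.1%) and 64.2% ± 6.94 (55.9% to 76%) in P. maniculatus.

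Grin2d, the GluN2 subunit of interneurons and of midbrain and diencephalic neurons, lay the other way in P. leucopus. It stood at 11.8 to 52.2 CPM (median 31.9) in young and 12.9 to 25.2 CPM (median 15.9) in old animals. Young replicates 1 to 4 lay at 31.1 to 52.2 CPM, above every old animal, young replicate 6 just above the highest old animal (25.7 against 25.2 CPM) and young replicate 5 below them all (11.8 CPM). Grin2d differed between the ages by -0.87 ± 0.27 (adjusted p = 0.145 by edgeR, 0.043 by DESeq2). This was -0.51 with the cortical markers as a covariate, -0.86 with the granule cell markers, and -0.84 without the libraries rich in Gabra6. Grin2d of P. maniculatus stood at 15.6 to 49.5 CPM (median 22.3) in young and 14.5 to 29.4 CPM (median 19.8) in old animals, which overlapped (-0.33 ± 0.26).

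Grin3a, a subunit that lowers calcium entry, stood at 35.9 to 96.4 CPM (median 63.8) in young and 31.5 to 61 CPM (median 46.9) in old animals of P. leucopus, with a fold change of -0.47 ± 0.20 (adjusted p = 0.243). The groups overlapped, and young replicate 5 was close to the lowest old animals. In P. maniculatus Grin3a stood at 8.25 to 37.7 CPM (median 27.3) in young and 6.9 to 22.6 CPM (median 16.1) in old animals, with a fold change of -0.64 ± 0.34 (adjusted p = 0.471). Grin1 stood at 412 to 737 CPM (median 501) in young and 528 to 755 CPM (median 669) in old animals of P. leucopus, and at 698 to 883 CPM (median 817) in young and 701 to 1222 CPM (median 802) in old animals of P. maniculatus. It overlapped in both, with fold changes of 0.32 ± 0.17 and 0.26 ± 0.19. The highest Grin1 values of P. maniculatus were those of old replicates 3 and 4. Grin3b gave 0.39 ± 0.26 and -0.19 ± 0.18.

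The delta subunits organise synapses and do not act as ordinary glutamate-gated channels. Grid1 stood at 53.3 to 84.6 CPM (median 68.3) in young and 55.5 to 79.4 CPM (median 58.1) in old animals of P. leucopus, and at 63 to 116 CPM (median 79.2) in young and 70.7 to 94.9 CPM (median 87.6) in old animals of P. maniculatus. Its fold changes were -0.11 ± 0.14 and 0.052 ± 0.15, and both pairs of groups overlapped. Pcp2, a Purkinje cell marker, stood at 248 and 122 CPM in old P. leucopus replicates 4 and 6 and at 376 CPM in young P. maniculatus replicate 3.

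Among the metabotropic glutamate receptors, Grm5 is the forebrain member of the first group. It stood at 76.8 to 238 CPM (median 134) in young and 61.7 to 242 CPM (median 163) in old animals of P. leucopus, and at 20.4 to 127 CPM (median 58) in young and 20.4 to 60.7 CPM (median 44.5) in old animals of P. maniculatus. Both pairs of groups overlapped (0.23 ± 0.35 and -0.56 ± 0.39).

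Of the second group, Grm2, a presynaptic receptor, was higher in old P. leucopus by the fit. It stood at 10.3 to 46.3 CPM (median 23.7) in young and 25 to 89.8 CPM (median 64.5) in old animals. Old replicates 3 and 4 lay within the young range, and young replicates 2, 3 and 4 lay at 10.3 to 11.3 CPM, below every other animal. The fold change was 1.17 ± 0.48 (adjusted p = 0.218). It was 0.69 with the cortical markers as a covariate, 1.49 with the granule cell markers, and 1.36 without the libraries rich in Gabra6. Grm2 of P. maniculatus stood at 47.3 to 115 CPM (median 49.8) in young and 42.5 to 90.6 CPM (median 63.9) in old animals, with no separation (0.067 ± 0.29). Grm3, which is also expressed by astrocytes, stood at 126 to 185 CPM (median 137) in young and 93.9 to 152 CPM (median 126) in old animals of P. leucopus and at 100.3 to 178 CPM (median 123) in young and 118 to 158 CPM (median 135) in old animals of P. maniculatus. Its share of the transcripts of this group was 74.7% ± 11.4 (62.5% to 85.2%) in young and 52.2% ± 12.6 (39.9% to 74.1%) in old P. leucopus, and 66.4% ± 9.31 (54.6% to 77.3%) and 67.2% ± 9.28 (56.5% to 78.7%) in P. maniculatus. The shares of old and young P. leucopus overlapped.

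Of the third group, Grm7, a presynaptic receptor of active zones, had an unadjusted p under 0.05 in P. maniculatus. It stood at 34.1 to 75.6 CPM (median 50.5) in young and 29.6 to 47.2 CPM (median 40.4) in old animals. The groups overlapped, and the 2 lowest animals were old replicates 3 and 4. The fold change was -0.37 ± 0.17 (adjusted p = 0.467). With these 2 libraries summed it was -0.33 (unadjusted p = 0.0824 by edgeR). Grm7 of P. leucopus stood at 21.7 to 52.5 CPM (median 39.6) in young and 27 to 45.7 CPM (median 37.2) in old animals (-0.023 ± 0.20). Grm8 stood at 18.4 to 26.4 CPM (median 22.4) in young and 10.2 to 32.3 CPM (median 19.1) in old animals of P. leucopus and at 21.7 to 31.1 CPM (median 24.7) in young and 12.4 to 29.3 CPM (median 17.6) in old animals of P. maniculatus. Its fold changes were -0.20 ± 0.27 and -0.36 ± 0.18. Grm4, the receptor of cerebellar granule cell terminals, stood at 41.6 to 485 CPM (median 55.8) in young and 39.4 to 120.2 CPM (median 52.7) in old animals of P. maniculatus. Young replicate 3 (485 CPM) and old replicate 2 (120.2 CPM) stood apart from the rest, and the fold change of -0.95 ± 0.59 became 0.014 without them. The P. leucopus locus that RefSeq names Grm4 stood at 42.6 to 63.4 CPM (median 47.6) in young and 25.3 to 400.4 CPM (median 51.5) in old animals, again with its highest values in old replicates 4 and 6.

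**Figure D5:**
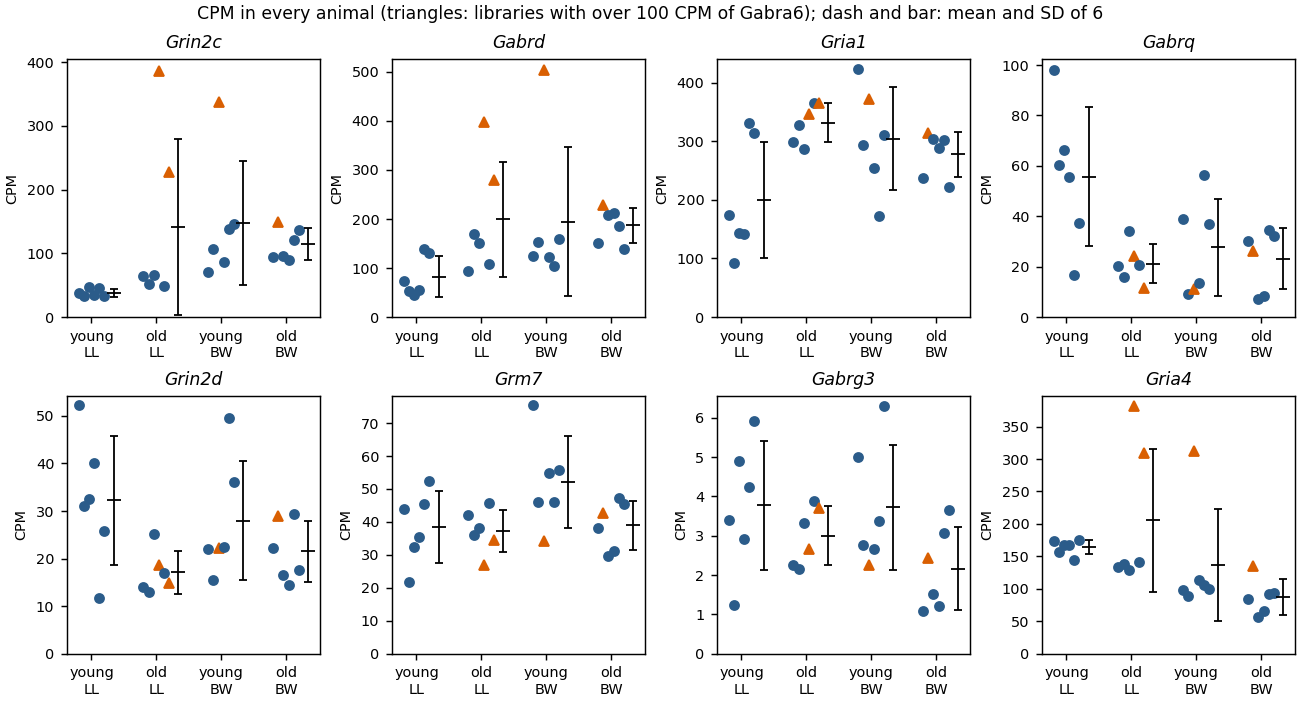
CPM of 8 receptor genes in every animal of the 4 groups; triangles are the 4 libraries with over 100 CPM of Gabra6, circles the other libraries, and the dash with its bar is the mean and SD of 6 animals. Grin2c of P. leucopus is the 1 panel in which all old animals lie above all young ones, while for Gria1, Gabrq and Grin2d the young P. leucopus animals fall into 4 on one side and 2 on the other, within or near the old range.

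Gabra5, the extrasynaptic alpha subunit of the hippocampus, stood at 45.6 to 87.4 CPM (median 56.8) in young and 67.7 to 121 CPM (median 86.4) in old animals of P. leucopus. Young replicates 5 and 6 reached the range of the old animals and the other 4 lay below it. Gabra5 differed between the ages by 0.49 ± 0.20 (adjusted p = 0.211). This was 0.25 with the cortical markers as a covariate, 0.58 with the granule cell markers, and 0.59 without the libraries rich in Gabra6. Gabra5 of P. maniculatus stood at 69.3 to 187 CPM (median 152) in young and 131 to 217 CPM (median 152) in old animals (0.21 ± 0.21). Gabra2, a subunit of axon initial segment synapses, stood at 39.6 to 134 CPM (median 70.8) in young and 36.3 to 140.0 CPM (median 105) in old animals of P. leucopus, and at 35.3 to 179 CPM (median 93.2) in young and 43.9 to 119 CPM (median 88.5) in old animals of P. maniculatus. Both overlapped (0.33 ± 0.37 and -0.14 ± 0.34). Gabra3 and Gabra4 of P. maniculatus gave -0.37 ± 0.26 and 0.029 ± 0.30, and Gabra4 of P. leucopus -0.15 ± 0.65, with values from 6.01 to 118 CPM among its young animals alone.

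The beta subunits carry the GABA binding site together with alpha. Gabrb2 stood at 16.7 to 64.7 CPM (median 40.1) in young and 6.9 to 34.3 CPM (median 22.2) in old animals of P. maniculatus, and at 139 to 393 CPM (median 260.2) in young and 229.8 to 442 CPM (median 266) in old animals of P. leucopus. It was lowest in old P. maniculatus replicates 3 and 4, and highest in old P. leucopus replicates 4 and 6. Fold changes were -0.86 ± 0.42 (adjusted p = 0.467) and 0.33 ± 0.26 (adjusted p = 0.504), and they differed between the species by -1.18 ± 0.51 (adjusted p = 0.287). The fold changes of Gabrb1 were -0.0061 ± 0.18 and 0.48 ± 0.25.

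Gabrg1, a gamma subunit of glia and of subcortical neurons, stood at 11.6 to 46.9 CPM (median 29.7) in young and 10.6 to 26.3 CPM (median 15.7) in old animals of P. leucopus, with a fold change of -0.73 ± 0.29 (adjusted p = 0.211). Young replicate 5 (11.6 CPM) lay among the lowest old animals, and old replicate 3 (26.3 CPM) among the young. In P. maniculatus Gabrg1 stood at 7.95 to 38.4 CPM (median 23.9) in young and 7.07 to 23.1 CPM (median 15.7) in old animals (-0.54 ± 0.35). Gabrg3, scarce in both species, stood at 2.27 to 6.3 CPM (median 3.06) in young and 1.09 to 3.64 CPM (median 1.98) in old animals of P. maniculatus and at 1.25 to 5.91 CPM (median 3.82) in young and 2.16 to 3.89 CPM (median 3.0) in old animals of P. leucopus. Fold changes were -0.74 ± 0.34 (adjusted p = 0.467) and -0.31 ± 0.32 (adjusted p = 0.617). With old P. maniculatus replicates 3 and 4 summed, the value of P. maniculatus was -0.68 (unadjusted p = 0.0853 by edgeR).

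Gabrd, the delta subunit of extrasynaptic receptors in cerebellar granule cells, dentate gyrus and thalamus, was higher in old P. leucopus by the fit. It stood at 44.7 to 138 CPM (median 64.3) in young and 93.2 to 398 CPM (median 160.0) in old animals. Young replicates 1 to 4 (44.7 to 72.8 CPM) lay below every old animal, young replicates 5 and 6 (138 and 131 CPM) lay among the old, and old replicates 4 and 6 were the highest. The fold change was 1.27 ± 0.40 (adjusted p = 0.147 by edgeR, 0.0322 by DESeq2). It was 0.69 without the libraries over 100 CPM of Gabra6, 0.93 with the granule cell markers as a covariate and 1.27 with the cortical markers. Gabrd of P. maniculatus stood at 105 to 503 CPM (median 139) in young and 138 to 229 CPM (median 196) in old animals, with young replicate 3 the highest and a fold change of 0.0047 ± 0.35. The age effects differed by -1.26 ± 0.56 (adjusted p = 0.289), and by -0.21 without the libraries over 100 CPM of Gabra6.

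Gabrd, Grin2c and Grm4 were also set against Gabra6 across animals, on the log2(CPM + 1) scale. The 2 libraries rich in Gabra6 of each species form a separate cluster and were left out: they held more Gabrd than any of the other 10 animals of their species (279 to 398 CPM in P. leucopus and 229 to 503 CPM in P. maniculatus), and 228 to 386 CPM of Grin2c in P. leucopus and 149 to 338 CPM in P. maniculatus. Among the other 10 P. leucopus animals, over both ages, Gabrd was lower where Gabra6 was higher (Pearson r = -0.83, permutation p = 0.00123, adjusted over 6 relations 0.00738; Spearman rho = -0.62, permutation p = 0.0600, adjusted 0.229), and r was -0.71 without the 2 animals farthest from the median of Gabra6. Within the 6 young animals r was -0.86 (exact permutation p = 0.0111, adjusted over 3 relations 0.0333) and rho -0.89 (exact permutation p = 0.0333, adjusted 0.1), and r was -0.83 without the 2 farthest, while r was 0.27 for Grin2c and -0.68 for Grm4 (smallest adjusted p by exact permutation 0.225). The other age groups held fewer than 6 animals outside the cluster. Young replicates 1 to 4 held the 4 lowest Gabrd values of these 10 animals. Gabra6 stood at 5.76, 47.7 and 9.31 CPM in young replicates 2, 3 and 4. In the rest of the 10 it stood at 0 to 1.30 CPM, where 3 counts equal 0.212 to 0.283 CPM. The Gabrd relation of P. leucopus thus sets young replicates 2, 3 and 4 against libraries with little or no Gabra6. The other 5 relations (Grin2c and Grm4 in both species and Gabrd in P. maniculatus, with Grm4 of P. leucopus by its named locus) gave r from -0.24 to 0.56 (smallest adjusted p by permutation 0.294) and rho from -0.52 to 0.56 (smallest adjusted p by permutation 0.229).

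Gabrq, the theta subunit, which is expressed in hypothalamus and brainstem, had the smallest unadjusted p of all receptor genes in P. leucopus. It stood at 16.5 to 97.9 CPM (median 58.1) in young and 11.5 to 34.3 CPM (median 20.4) in old animals. Young replicates 1 to 4 (55.7 to 97.9 CPM) and young replicate 6 (37.2 CPM) lay above every old animal, and young replicate 5 (16.5 CPM) lay among the lowest old ones. The fold change was -1.35 ± 0.35 (adjusted p = 0.116 by edgeR, 0.00756 by DESeq2). It was -0.83 with the cortical markers as a covariate, -1.31 with the granule cell markers, and -1.23 without the libraries rich in Gabra6. In P. maniculatus Gabrq stood at 9.32 to 56.5 CPM (median 25.2) in young and 7.4 to 34.4 CPM (median 28.1) in old animals (-0.24 ± 0.47).

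The rho subunits form homomeric channels known best from the retina, and both were scarce. Gabrr1 stood at 1.57 to 7.65 CPM (median 5.5) in young and 0.772 to 3.24 CPM (median 2.1) in old animals of P. leucopus. Young replicates 1 to 4 and 6 lay above every old animal and young replicate 5 (1.57 CPM) among them. Gabrr1 differed between the ages by -1.32 ± 0.41 (adjusted p = 0.145 by edgeR, 0.0391 by DESeq2). This was -0.78 with the cortical markers as a covariate, -1.53 with the granule cell markers, and -1.64 without the libraries rich in Gabra6. Gabrr1 of P. maniculatus stood at 0.626 to 5.71 CPM (median 1.56) in young and 0.841 to 5.59 CPM (median 2.11) in old animals (0.12 ± 0.59). Gabrr2 stood at 0 to 10.8 CPM (median 2.88) in young and 0 to 2.75 CPM (median 0.427) in old animals of P. leucopus and at 0.917 to 7.91 CPM (median 1.21) in young and 1.68 to 11 CPM (median 4.87) in old animals of P. maniculatus. Its fold changes of -1.89 ± 0.96 and 1.02 ± 0.56 had opposite signs, and their difference was 2.93 ± 1.15 (adjusted p = 0.256).

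Old and young animals overlapped for both GABA-B subunits. Gabbr1 stood at 403 to 712 CPM (median 579.8) in young and 558 to 661 CPM (median 599) in old animals of P. leucopus, and at 725 to 949.9 CPM (median 796) in young and 879 to 959.6 CPM (median 897) in old animals of P. maniculatus. The fold changes were 0.14 ± 0.16 and 0.19 ± 0.098 for Gabbr1 and 0.39 ± 0.24 and -0.084 ± 0.18 for Gabbr2, the subunit that couples to the G protein. None of these passed the test.

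The difference between the species' age effects was tested for 34 receptor genes whose names stood in both tables. By edgeR none of them passed an adjusted p of 0.05, and none of the 11659 genes tested did (0%). At an unadjusted p under 0.05 there were 6 (Grin2c, Gabrr2, Gria1, Gabrb2, Gabrd and Gria4), that is 17.6% against 15.1% of all genes. In 5 of these 6 the age effect was more negative in P. maniculatus (7.75% of all genes), and in Gabrr2 it was more positive (7.34% of all genes). DESeq2 called 1 receptor gene, Grin2c, beside 0.635% of all genes. Gria1 differed by -0.81 ± 0.35 (adjusted p = 0.286) and Gria4 by -0.93 ± 0.42 (adjusted p = 0.299). Without the libraries over 100 CPM of Gabra6 Gria1 differed by -0.76 and Gria4 by -0.11. With the granule cell markers as a covariate the values were -0.83 and -0.36. Of the 34 differences 24 were negative, with a median of -0.33, against 49.1% positive and a median of -0.011 over all genes. With the cortical markers as a covariate 19 were negative and 15 positive, with a median of -0.22.

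These counts moved under most settings for region markers, though P. leucopus kept 10 of 34 without the libraries over 100 CPM of Gabra6. In P. leucopus, 14 of 34 receptor genes had an unadjusted p under 0.05 with the granule cell markers as a covariate. This was 41.2% against 27% of all genes, with 9 higher and 5 lower. In P. maniculatus 3 of 37 did (8.11% against 14.5%), and 8 of 34 for the difference (23.5% against 15.9%). With the cortical markers as a covariate 7 of 34 receptor genes, 3 higher and 4 lower, had an unadjusted p under 0.05 in P. leucopus, that is 20.6% against 14.3% of all genes. Without the libraries over 100 CPM of Gabra6 the counts were 10 of 34 in P. leucopus (29.4% against 23.9% of all genes), 6 of 37 in P. maniculatus (16.2% against 9.59%) and 7 of 34 for the difference (20.6% against 10.99%). Summing old P. maniculatus replicates 3 and 4 left 0 of 37 in P. maniculatus, and 5.26% of all 12502 genes then tested. The part of region content in the age differences was not tested beyond these values. In the fits of all animals without a covariate, 18.7% of all genes had an unadjusted p under 0.05 in P. leucopus (8.32% higher and 10.4% lower). This share was 10.3% in P. maniculatus (4.94% higher and 5.39% lower). Beside it, 5 of 5 oligodendrocyte markers had such a p in P. leucopus, all lower in old animals (summed level 4762 to 18685 CPM in young and 2468 to 6995 CPM in old). There 3 of 4 granule cell markers were higher at that level (median 4.11 on the log2 scale). None of either list was at 0 in a whole group. Yet the summed granule cell markers had a median of 22.1 CPM in young and 17.3 CPM in old P. leucopus. Gabra6 stood at 832 and 580.4 CPM in old replicates 4 and 6 and at 1.30 CPM or less in the other old animals. In P. maniculatus 0 of 4 oligodendrocyte and 0 of 3 granule cell markers tested had such a p, with medians of 0.083 and -2.25. There 2 of 5 microglia markers, 1 of 4 astrocyte markers and 1 of 3 thalamic markers were higher at that level and the 1 olfactory bulb marker tested was lower. In P. leucopus 1 of 4 markers of neurons (median 0.35) and 1 of 4 of cortical excitatory neurons (median 0.86) were higher. So were 1 of 5 microglia markers, 1 of 3 markers of meninges and pituitary and the 1 olfactory bulb marker tested. In that species 1 of 4 astrocyte and 1 of 3 hippocampal markers were lower. Both Purkinje cell markers tested were higher and 3 of 3 choroid plexus markers lower in old P. leucopus at that level by the fit, while 0 of 3 and 0 of 4 had such a p in P. maniculatus. The summed Purkinje cell markers had a median of 10.1 CPM in young and 8.70 CPM in old P. leucopus, where the highest animal reached 479 CPM.

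Other genes of glutamate and GABA transmission (55 transporters, enzymes, auxiliary subunits and scaffolds) were tested in the same fits. No gene of this list passed an adjusted p of 0.05 by edgeR in either species. DESeq2 called 2 of 50 in P. leucopus, beside 5.85% of all genes, and 0 of 53 in P. maniculatus, beside 0.161%. In P. leucopus 12 of 50 tested had an unadjusted p under 0.05, 7 higher and 5 lower (24% against 18.7% of all genes), and the median difference was 0.28. The smallest p-values belonged to Slc6a11, a GABA transporter of astrocytes (-1.26 ± 0.39, adjusted p = 0.145), and Slc1a3, a glial glutamate transporter (0.67 ± 0.22, adjusted p = 0.158). In P. maniculatus 6 of 53 did, 1 higher and 5 lower (11.3% against 10.3% of all genes), with a median of -0.19. There the smallest belonged to Kctd12, an auxiliary GABA-B subunit (-0.89 ± 0.30, adjusted p = 0.467), and Gphn, which encodes gephyrin, the scaffold that anchors inhibitory receptors (-0.29 ± 0.11, adjusted p = 0.467). Of the GABA receptor auxiliary and scaffold genes 5 of 8 in P. maniculatus had an unadjusted p under 0.05, 4 lower and 1 higher, and 0 of 9 in P. leucopus. Of the transporters and enzymes 7 of 13 did in P. leucopus and 0 of 14 in P. maniculatus. The difference between species was more negative in P. maniculatus for all 13 of the 50 genes with an unadjusted p under 0.05, that is 26% against 15.1% of all genes (7.75% more negative in P. maniculatus).

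The index Pc measures whether a gene keeps its pattern of correlation with all other genes: it is the Pearson correlation between its correlation coefficients in young and in old animals, so values near 1 mean that the pattern is kept and values below 0 that it is turned. Of 35 receptor genes of P. leucopus with a value, 4 had a negative Pc (11.4% ± 13.7, jackknife SE over 12 animals), against 27.5% of 19718 transcripts and 22% of those that passed the filter. In P. maniculatus 7 of 38 did (18.4% ± 16.9), against 23.3% of 15262 and 19.1%. Median Pc was 0.23 ± 0.064 for receptor genes and 0.15 for all transcripts in P. leucopus, and 0.19 ± 0.12 and 0.16 in P. maniculatus. Over the transcripts that passed the filter on low counts the median was 0.19 in both species. These errors are those of the receptor genes alone and do not measure the spread of the gap to all transcripts, which came from the same animals. Whether receptor genes differ from other transcripts by this index was not tested.

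The lowest Pc of P. leucopus belonged to Gabrd (-0.24 ± 0.17), followed by Grid1 (-0.15 ± 0.32) and Gabrb2 (-0.042 ± 0.23). Gabrd alone of these kept its sign when each animal was left out, with a range of -0.29 to -0.12. In P. maniculatus the lowest were Grin2a (-0.21 ± 0.28), Grin2b (-0.14 ± 0.25) and Grin3b (-0.11 ± 0.28), none of which kept its sign. The highest values were those of Gria3 (0.38 ± 0.10) and Grin2a (0.38 ± 0.14) in P. leucopus and of Gabrb2 (0.45 ± 0.16) and Grm4 (0.44 ± 0.22) in P. maniculatus. By class, the AMPA and NMDA subunits of P. leucopus had medians of 0.34 and 0.31 with no negative value. In P. maniculatus the NMDA median was 0.071, with 3 of 7 values negative, and the kainate median 0.29 with none.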

How the data were processed

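Total brain RNA of 24 deer mice was sequenced, 1 library per animal, with a kit that marks strand. The authors trimmed reads with Trim Galore 0.4.5, aligned them with STAR 2.7.2b to Pero_0.1 (P. leucopus) or HU_Pman_2.1 (P. maniculatus), and counted them with featureCounts 1.5.3 without strand, giving multi-mapping and overlapping reads to genes as fractions, so that reads of an antisense partner or a near-identical copy cannot be told apart from those of a receptor gene. The deposited values are thus estimated counts that need not be whole, beside the length of each gene model, and they were rounded to whole numbers for the tests. The P. maniculatus row without a gene name was left out.

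Groups came from the stock and age labels. Old and young animals of each species were compared with the quasi-likelihood test of edgeR 4.0.16 in R 4.3.3 (low counts filtered by filterByExpr, TMM scaling, Benjamini-Hochberg adjustment over all genes tested, threshold 0.05), and the species by age interaction was tested on names shared by both tables. Standard errors were derived from the quasi-F statistics. DESeq2 1.42.0, other scalings and filters, an exact permutation test of mean CPM, covariates of region markers and fits without single animals or without libraries that stood apart were alternatives; those without libraries rich in Gabra6 and with cortical markers as a covariate were chosen after seeing the data. The relation to Gabra6 was planned over 12 animals and is given over 10, because the libraries rich in Gabra6 form a separate cluster; within age groups it is given for young P. leucopus, where 6 animals remained. Permutation p-values are two-sided (100000 resamples where not exact). Pc was computed on CPM. Shares and sums over a class carry no test. Python 3.11.15 with SciPy 1.17.1 was used, and the fits and Pc were tested on simulated data.

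Values in every group are given for the member with the highest TPM of each class, for 8 members fixed by name, and for each member with an unadjusted p under 0.05. Of other lists, genes past the threshold or else the 2 with the smallest p in each species are named. Some genes of these families and of the marker lists are not reported here and enter no count over the members or lists. The members and lists were chosen with earlier results of these data known. Library totals of 5766964 to 19461818 counts limit the precision most for scarce genes such as Gabrr2 and Gabrg3, and the limits that a count of 0 allows cover counting error only.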

Additional observations from a re-analysis of the deposited data

Results flagged for a closer look

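Of 142 groups of 6 animals examined (each receptor gene that passed the filter, in the young and the old animals of each species), 10 held 1 animal that stood apart from the other 5 by Dixon's criterion at the 95% level, which chance meets in about 1 in 20 groups.

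In young P. maniculatus replicate 3, the library with 677 CPM of Gabra6, 4 receptor genes stood apart as the highest of their group. They were Gabrd (503 CPM, the next animal at 159.6 CPM), Gria4 (312 against 114 CPM), Grin2c (338 against 146 CPM) and Grm4 (485 against 73.0 CPM). Gabrb1 stood apart as the lowest there (13.1 against 20.03 CPM). In old P. maniculatus replicate 2, with 119 CPM of Gabra6, Grm4 stood apart as the highest (120.2 against 64.6 CPM).

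Old P. leucopus replicate 4, with 832 CPM of Gabra6, held the lowest Grin2b (24.6 against 133 CPM in the next animal) and the lowest Gria2 (291 against 432 CPM). Grid1 stood apart at 79.4 CPM in old P. leucopus replicate 3 (the next animal at 61.7 CPM) and, as the lowest, at 70.7 CPM in old P. maniculatus replicate 6 (the next at 86.0 CPM). The part of region content in these values was not tested.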

How the results depend on the processing

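No paired analysis was possible because the labels give the animals no shared replicate numbers. Of the results that answer a comparison, 357 values under other settings and 23 under settings chosen after seeing the data were counted as unchanged. Counts of called genes among them did not change. Shares within a class carry no threshold, and some of their differences, old minus young, turned in sign without single animals. Grin2b in GluN2 of P. leucopus ranged from -2.1 to 3.27 percentage points. In P. maniculatus Gria2 in AMPA ranged from -3.39 to 1.84, Grin2c in GluN2 from -2.33 to 7.2 and Grm3 in the second group from -1.61 to 2.93. DESeq2 called 5 of 34 receptor genes and 2 of 50 other genes of transmission in P. leucopus, beside 5.85% of all genes. For the interaction it called 1 of 34 receptor genes, beside 0.635% of all genes. By edgeR these counts were 0. Leaving out single animals gave 0 to 5 receptor genes and 0 to 3 other genes called by edgeR in P. leucopus: without young replicate 5 Gabrr1, Gria1, Gabrd, Grin2d and Gabrq passed beside 963 of 14958 genes (6.44%), and without any other animal none did. Receptor genes with an unadjusted p under 0.05 in P. maniculatus were 2 of 37 by edgeR (5.41% against 10.3% of all genes). They were 4 by DESeq2 (10.8% against 11.4%), 4 with cortical markers as a covariate (10.8% against 11.3%) and 6 without the libraries rich in Gabra6 (16.2% against 9.59%). By the exact permutation test of mean CPM they were 0 (8.91% of all genes), and with old replicates 3 and 4 summed 0 (5.26% of all genes). Median Pc of P. leucopus ranged from 0.15, without old replicate 4, to 0.23 over the fits without single animals. The relation of Gabrd to Gabra6 in P. maniculatus turned to r = 0.071 with old replicates 3 and 4 summed.

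The sign of these log2 fold changes turned. In P. leucopus, Gabra2 gave -0.19 and Grin2b -0.46 with cortical markers as a covariate. For the interaction, Gabra2 and Grin2b gave 0.036 and 0.76 with that covariate. Without the libraries rich in Gabra6, Grin2c gave 0.036 and Grm4 0.014 in P. maniculatus. Gabrd of P. maniculatus, at 0.0047, gave -0.0051 with RLE size factors, -0.061 with total counts, -0.00035 with all genes kept, -0.0048 with DESeq2, -0.060 in mean CPM, -0.056 with old replicates 3 and 4 summed and -0.017 with the unnamed row. Without single animals, the ranges that crossed 0 were, in P. maniculatus, -0.31 to 0.14 for Gabra2, -0.12 to 0.56 for Gabrd, -0.47 to 0.11 for Grin2c and -1.22 to 0.28 for Grm4, and -0.52 to 0.22 for Grin2b in the interaction. Apart from fewer animals in the fits that leave some out, the cause of these differences was not tested.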
